A study of Homo sapiens with 6 samples.

Results

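The genes described here encode extracellular and membrane proteases and the proteins that inhibit them, as measured by RNA-seq in HT-29 cells with or without depletion of OGT. OGT is the enzyme that attaches O-GlcNAc, a single sugar, to nuclear and cytoplasmic proteins. HT-29 is an established human colorectal cancer line that grows attached to the dish. Members were chosen by name. They are the protein-coding genes of the TMPRSS, PRSS, KLK, MMP, ADAM, ADAMTS, PCSK, DPP, ECE and CAPN protease families, of ST14, HPN, FURIN, PLAU, PLAT, MME, ANPEP and the HTRA family, and of the SERPIN, SPINT, SPINK, TIMP, CST and WFDC inhibitor families with SLPI and PI3. The deposited table holds 64 of them among 5681 genes. GENCODE 29 lists 246 coding genes that meet the same rule, so 26.0% of them are in the table, beside 20.7% of all coding genes. The others were not analysed here.

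The 3 Scramble libraries carried a non-targeting short hairpin RNA and the 3 shOGT libraries a hairpin against OGT, and all 6 were made from HT-29 cells. Which OGT hairpin was used, and whether the libraries of a group came from separate cultures, is not stated in the sources used here, so the p-values below measure only the spread between these libraries. Values are given in the order of replicates 1, 2 and 3 for Scramble and of replicates 4, 5 and 6 for shOGT. The unit is the normalized count, which is the number of reads of a gene divided by a size factor for the library. Differences are log2 fold changes of the normalized count plus 1, shOGT over Scramble, with their standard error and the Benjamini-Hochberg adjusted p of limma's trend fit over the whole table. A gene was called where the adjusted p was below 0.05 and the change was over 2-fold.

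Proteases outside the cell are controlled at several levels. Most are made as inactive zymogens that another protease cuts, many are held at the plasma membrane, and each large family meets dedicated inhibitors: Kunitz and Kazal domain proteins and serpins for serine proteases, TIMPs for metalloproteinases, and cystatins for cysteine proteases. In colon epithelium, membrane serine proteases and their Kunitz inhibitors act on the lateral cell surface, ADAM proteases release growth factors from it, and matrilysin is a secreted enzyme of glandular cells. Calpains work in the cytosol, and several serpins of the B clade are also intracellular, so the family names take in some members that are not extracellular.

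Normalized counts of OGT itself fell from 9628, 11638 and 11619.5 to 484, 621 and 537 (log2 fold change -4.32 ± 0.11, adjusted p = 1.59e-12). The 6 libraries held 3302558 to 4504303 reads on the listed genes, and the size factors were 1.09 to 1.13 for Scramble and 0.879 to 0.95 for shOGT. The authors' table had already been restricted to genes that differed between the groups, with a smallest absolute log2 fold change of 1.0001 and a largest adjusted p of 0.04997. The adjusted p-values given here come from genes already selected in these same libraries. They therefore do not measure a false discovery rate and only describe how far the groups lie apart beside their spread. Of 5671 genes tested, 2959 (52.2%) were called higher and 2677 (47.2%) lower in shOGT, and 99.5% had groups that did not overlap. Rescaling the libraries by their median ratio across the listed genes raised the median of all genes by 0.71 on the log2 scale. It gave 2980 higher and 1090 lower calls. Among the 4127 protein-coding genes tested, 42.3% were called higher and 57.1% lower. In bulk RNA of this kind, fewer cells of a type and less RNA per cell cannot be told apart. Of 12 colon epithelium markers, 4 were in the table, with KRT20 (2.69) and KRT19 (1.39) higher and VIL1 (-1.12) and LGALS4 (-1.97) lower. Of 17 markers of leukocytes, fibroblasts and endothelium, 5 were in the table (LYZ, CD14, CD79A, PDGFRB and PECAM1), and all 5 were higher in shOGT. Their summed level was 7976 to 8687 normalized counts in Scramble and 15876 to 17647 in shOGT, nearly all of it LYZ. Without LYZ it was 57.7 to 70.1 in Scramble and 205 to 251 in shOGT, and PDGFRB was at 0 in 2 Scramble libraries. All 6 libraries were made from the HT-29 line, so these marker names do not by themselves show other cell types. The part of these genes in the results below was not tested.

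All 64 members passed the filter on low values and all 64 were called. With a table restricted this way, that count carries no information about the members, and only the directions and sizes are described. OGT-depleted cells had 42 members higher (65.6%) and 22 lower (34.4%), with a median log2 fold change of 1.63. The same median over the protein-coding genes of the table was -1.11, and over all genes 1.05. The table holds almost no change within 2-fold, so the sign of such a median follows the share of genes higher. That share was 42.3% of protein-coding genes and 52.2% of all genes tested. The 45 genes of protease families divided into 28 higher and 17 lower, with a median of 1.64. The 19 genes of inhibitor families divided into 14 higher and 5 lower, with a median of 1.61. After the rescaling, 42 members were still called higher and 15 lower. The rescaling raised every member's change, by 0.25 to 0.72 on the log2 scale, so it could hardly end a higher call. No member changed direction in any alternative that was run. The restriction of the table makes such steadiness likely. Setting the 3 members that had no read in 1 group at the bound given by 3 reads left the median at 1.63. Their changes (ADAMTS16 3.60, PRSS41 2.68 and HPN -3.13) lie far from the median either way, so that step could not move it.

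**Figure D1:**
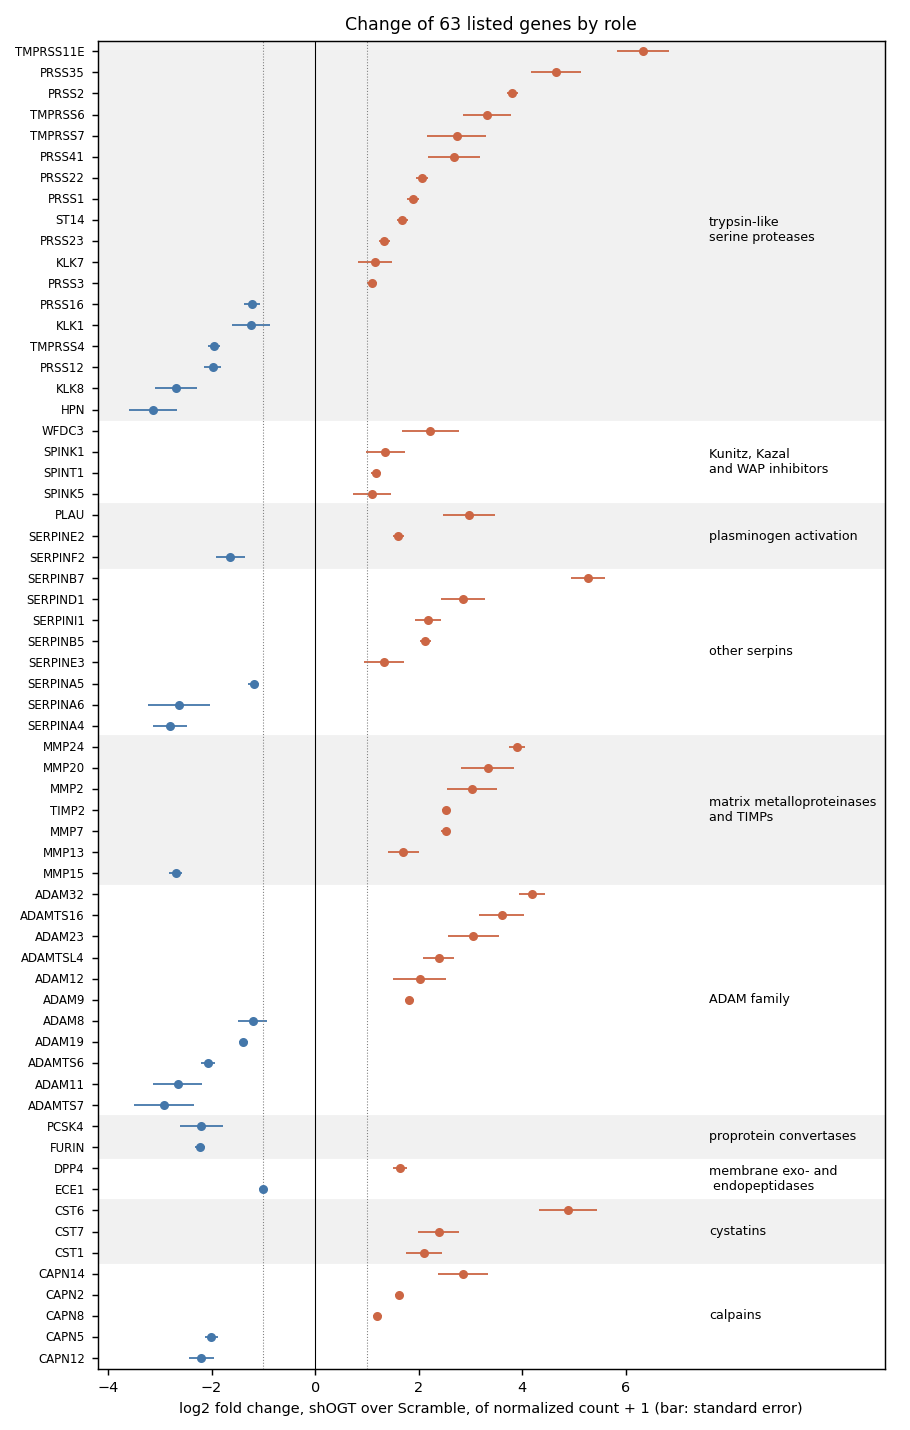
The log2 fold change of 63 members, shOGT over Scramble, of the normalized count plus 1, grouped by role. Points are limma estimates from 3 libraries a group, bars are standard errors, orange is higher and blue lower in shOGT, and dotted lines mark a 2-fold change. TMPRSS11E lies farthest to the right at 6.33 and HPN farthest to the left at -3.13.

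The class named trypsin-like serine proteases was the largest, with 18 members, of which 12 were higher and 6 lower. It was set by gene name (TMPRSS, ST14, HPN, PRSS and KLK). Membership therefore does not show that each gene, PRSS16 among them, encodes a trypsin-like enzyme. The membrane protease ST14 (matriptase), which cuts other zymogens and growth factor precursors at epithelial junctions, was the most highly read member in shOGT. Its level rose from 6763, 5667 and 5663 to 21726, 18611 and 17802 (log2 fold change 1.68 ± 0.10, adjusted p = 1.8e-09). The groups did not overlap, and the lowest shOGT library held over 2-fold the highest Scramble value. PRSS22, a tryptase-like enzyme first described in airway epithelium, went from 1165, 976 and 871 to 4910.2, 3785 and 3859.7 (log2 fold change 2.06 ± 0.12, adjusted p = 1.45e-09). PRSS23, a secreted family member, had a mean of 990.5 ± 132 (SD, n = 3) in Scramble and 2494 ± 149 in shOGT (log2 fold change 1.34), and 10.6% of its 75-base stretches also occur in FZD4, its neighbour.

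The trypsinogens, zymogens best known from the exocrine pancreas, were all present in Scramble libraries and all higher in shOGT. PRSS2, anionic trypsinogen, gave 409, 348 and 349 normalized counts in Scramble and 5027, 4669.8 and 5800.4 in shOGT (log2 fold change 3.80 ± 0.10, adjusted p = 2.88e-12). PRSS1, cationic trypsinogen, gave 559, 442 and 494 and 1715, 1689 and 2131 (log2 fold change 1.88 ± 0.12, adjusted p = 2.29e-09). PRSS3, or mesotrypsin, a form that resists and cleaves trypsin inhibitors, gave 807, 811 and 710.4 and 1730.4, 1524 and 1732 (log2 fold change 1.10 ± 0.10, adjusted p = 6.97e-08). Every shOGT library lay above every Scramble library for each of them. In shOGT cells PRSS2 reached 4103 normalized counts per kilobase of gene model, against 983 for PRSS1 and 999 for PRSS3, whereas in Scramble cells the 3 lay at 293, 266 and 466. The 3 transcripts are close relatives. Of the 75-base stretches of PRSS2, 3.52% occur in another gene, mainly the pseudogene PRSS3P1 (2.23%), and 0.824% of those of PRSS1 occur in PRSS2, so a part of these reads could have been assigned to a relative. For PRSS3 the share was 0.823%, with TMEM45B.

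PRSS1 and PRSS2 lie 25.1 kb from end to end on chromosome 7, and PRSS3 lies on chromosome 9. The 250 bases before each RefSeq start are printed because the 3 genes rose by different amounts and these sequences are similar. Which starts gave the measured reads was not tested. The gene models of PRSS2 and PRSS3 begin upstream of the printed bases, at 142760398 and 33750466. The printed sequences come from RefSeq on GRCh38.p14, plus strand, at chr7:142749222-142749471 for PRSS1, chr7:142770720-142770969 for PRSS2 and chr9:33795311-33795560 for PRSS3. Capitals mark TATAA, read on the gene's strand, which begins 32 bases before the start in all 3 and occurs in 13.6% of all such upstream windows.
PRSS1: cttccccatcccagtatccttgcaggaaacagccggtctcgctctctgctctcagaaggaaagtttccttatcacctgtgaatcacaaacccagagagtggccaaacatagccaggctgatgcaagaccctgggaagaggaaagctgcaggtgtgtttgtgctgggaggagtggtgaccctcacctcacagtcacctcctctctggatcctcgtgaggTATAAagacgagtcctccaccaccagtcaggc
PRSS2: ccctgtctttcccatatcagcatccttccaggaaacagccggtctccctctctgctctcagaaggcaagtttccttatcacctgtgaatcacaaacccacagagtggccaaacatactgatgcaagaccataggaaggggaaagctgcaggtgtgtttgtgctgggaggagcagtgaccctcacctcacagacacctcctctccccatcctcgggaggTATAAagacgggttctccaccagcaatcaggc
PRSS3: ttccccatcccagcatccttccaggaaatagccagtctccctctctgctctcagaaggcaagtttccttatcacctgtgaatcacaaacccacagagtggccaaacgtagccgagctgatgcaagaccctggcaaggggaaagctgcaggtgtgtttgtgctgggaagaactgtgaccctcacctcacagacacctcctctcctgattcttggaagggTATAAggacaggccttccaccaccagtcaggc
In a global alignment PRSS1 and PRSS2 shared 86.7% of the aligned columns, PRSS1 and PRSS3 88.5%, and PRSS2 and PRSS3 85.2%.

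Several serine proteases were nearly absent from Scramble libraries. TMPRSS11E, a membrane protease of squamous epithelia, had 0, 0 and 2.76 normalized counts in Scramble, which is 3 reads in all, and 112, 111 and 154 in shOGT. The ratio of reads after scaling was 138, with a 95% counting interval of 47.0 to 674 (log2 fold change 6.33 ± 0.50, adjusted p = 2.63e-08, and 6.97 without Scramble replicate 3). PRSS35, a secreted family member held to lack the catalytic serine, had 0, 0 and 0.920 in Scramble and 51.6, 24.6 and 21.6 in shOGT, a ratio of 109.5 (19.2 to 4372; log2 fold change 4.65 ± 0.48, adjusted p = 4.33e-07). The single Scramble read of PRSS35 sets the width of that interval. TMPRSS6 (matriptase-2), which controls hepcidin in the liver, had a mean of 2.12 ± 1.42 in Scramble and 29.3 ± 9.84 in shOGT (log2 fold change 3.32). TMPRSS7 (matriptase-3) went from 3 to 27 reads, a ratio of 10.8 (3.33 to 55.8; log2 fold change 2.73, and 3.36 without Scramble replicate 2). PRSS41, a testis serine protease, had no read in Scramble and 17 in shOGT, so it was at least 6.72-fold higher, taking 3 reads over the Scramble group as the floor.

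The membrane serine proteases TMPRSS4 and HPN went the other way. TMPRSS4, a type II transmembrane protease studied in gastrointestinal tumours, fell from 1084, 1038 and 1027 to 317, 256 and 240.2 (log2 fold change -1.96 ± 0.12, adjusted p = 1.67e-09). HPN (hepsin), a membrane protease of hepatocytes and prostate, had 7.10, 5.41 and 12.0 in Scramble and no read in any shOGT library, which makes it at least 7.51-fold lower (log2 fold change -3.13 ± 0.46, adjusted p = 1.63e-05), and 5.18% of its stretches also occur in HPN-AS1. These values show that membrane proteases of the same architecture were not moved in 1 direction. PRSS12 (neurotrypsin, which cleaves agrin) fell from 389 ± 52.2 to 98.4 ± 17.6 (log2 fold change -1.98) and PRSS16, a thymic protease, from 309.9 ± 28.0 to 133 ± 19.8 (-1.22, or -0.51 and no longer called after the rescaling).

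Of the kallikrein-related peptidases, a cluster of secreted serine proteases on chromosome 19, 3 were in the table and all were scarce. KLK7, a chymotrypsin-like enzyme of skin shedding, rose from 23.1, 18.0 and 12.9 to 40.0, 36.4 and 44.4 (log2 fold change 1.15 ± 0.33, adjusted p = 0.00356), and its change was 0.94 and not called without Scramble replicate 3. KLK1, tissue kallikrein, which releases kinins, fell from 41.2 ± 8.92 to 17.7 ± 8.01 (log2 fold change -1.24 ± 0.36, adjusted p = 0.00449). Its change was -0.99 without shOGT replicate 4 and -0.55 after the rescaling, neither of them called. KLK8 (neuropsin) fell from 38.3 ± 12.7 to 5.07 ± 1.64 (log2 fold change -2.68), but 31.4% of its 75-base stretches are shared with AC011473.4, which lies over it on the same strand.

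All 4 Kunitz, Kazal and WAP domain inhibitors in the table were higher in shOGT. SPINT1 (HAI-1), the membrane-anchored Kunitz inhibitor of matriptase, was the only abundant one. It rose from 7423, 6640.4 and 6509 to 17036, 13418 and 16155 (log2 fold change 1.17 ± 0.10, adjusted p = 5.68e-08). Per kilobase it was the highest member in Scramble, at 1936, and second to ST14 in shOGT, at 4386 against 4455. SPINK1, the pancreatic trypsin inhibitor, went from 23.9, 9.91 and 17.5 to 51.6, 31.1 and 48.9 (log2 fold change 1.35 ± 0.37, adjusted p = 0.00299). SPINK5 (LEKTI), the Kazal inhibitor of skin kallikreins, went from 12.4, 20.7 and 34.0 to 37.9, 52.5 and 46.7 (log2 fold change 1.09 ± 0.36, adjusted p = 0.00975). The highest Scramble library of SPINK5 was close to the lowest shOGT library, and its change was 0.75 without Scramble replicate 1 and 0.99 without shOGT replicate 5, neither of them called. WFDC3, a WAP domain protein, had 4.43, 0.901 and 1.84 in Scramble and 20.0, 20.4 and 5.69 in shOGT (log2 fold change 2.23 ± 0.55, adjusted p = 0.00145).

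**Figure D2:**
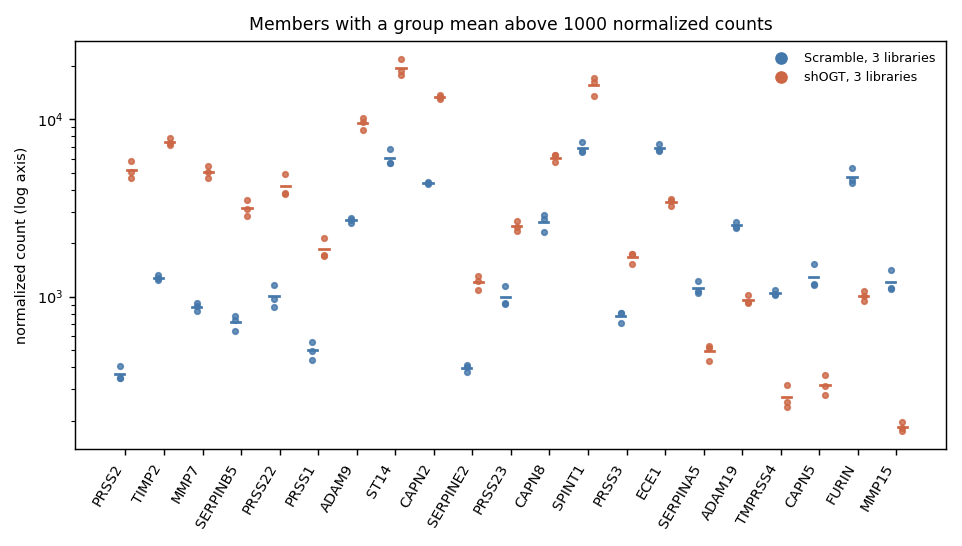
Normalized counts on a log axis for the 21 members with a group mean above 1000, in order of log2 fold change. Points are libraries, 3 in blue for Scramble and 3 in orange for shOGT, and short lines are group means. The groups are apart for each of the 21, from PRSS2 (3.80) on the left to MMP15 (-2.70) on the right.

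A protease and its inhibitor that rise together need not change in ratio, so ratios were taken within each library, where the scaling between libraries cancels. Of 32 pairs of a protease with an inhibitor or receptor, 10 had both genes in the table, each a protease with an inhibitor. Values are ratios of normalized counts with no division by gene length, so only their change between groups is read. Differences and their tests use log2 ratios after 1 was added to both counts, which pulls ratios with few reads together. The ST14 to SPINT1 ratio was 0.911, 0.853 and 0.870 in Scramble and 1.28, 1.39 and 1.10 in shOGT. Every shOGT ratio was above every Scramble ratio, a difference of 0.51 in the mean log2 ratio (two-sided exact permutation p = 0.1, the smallest that 3 against 3 libraries allow, as for all p = 0.1 below). TMPRSS4 to SPINT1 went from between 0.146 and 0.158 to between 0.0149 and 0.0191, a difference of -3.13 (exact permutation p = 0.1). For HPN to SPINT1 the ratio was 0 in all shOGT libraries because HPN had no read there.

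The 3 trypsinogens were each set against SPINK1, although PRSS3 resists trypsin inhibitors, and differences between these ratios were not tested. PRSS2 to SPINK1 went from between 17.1 and 35.1 to between 97.5 and 150.3, a difference of 2.45 in the mean log2 ratio with no overlap (exact permutation p = 0.1). PRSS1 to SPINK1 was 23.3 to 44.6 in Scramble and 33.2 to 54.4 in shOGT, groups that overlapped (0.53, exact permutation p = 0.2). PRSS3 to SPINK1 was 33.7 to 81.8 and 33.6 to 49.1, also overlapping (-0.26, exact permutation p = 0.7). SPINK1 had at most 51.6 normalized counts in a library, so these ratios carry its counting error. KLK7 to SPINK5 was 0.378 to 1.86 in Scramble and 0.694 to 1.06 in shOGT, so no difference was detectable at this depth (0.06, exact permutation p = 0.9). PLAU to SERPINE2 and MMP2 to TIMP2 rest on 2 and 3 Scramble reads of the protease. Their ratios as such did not overlap, at most 0.00474 in Scramble and at least 0.00607 in shOGT for PLAU to SERPINE2, and at most 0.00145 and at least 0.00165 for MMP2 to TIMP2. With 1 added to the counts they overlapped (1.36, exact permutation p = 0.2, and 0.50, exact permutation p = 0.5), so the pseudocount decides the overlap. In all, the groups did not overlap for 5 of the 10 ratios with 1 added and for 7 of the 10 without. Over these 10 tests no p could fall below 0.1, so none passes 0.05 before or after adjustment.

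**Figure D3:**
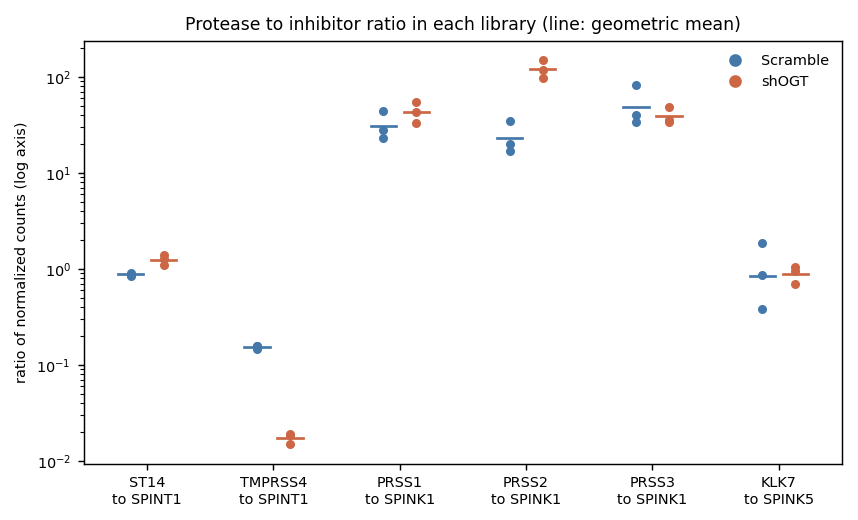
Ratio of the normalized count of a protease to that of the inhibitor it was paired with in each library, on a log axis, for 6 pairs. The 3 Scramble libraries are in blue and the 3 shOGT libraries in orange. Short lines are geometric means. TMPRSS4 to SPINT1 (difference -3.13 in log2) and PRSS2 to SPINK1 (2.45) separate most, ST14 to SPINT1 separates by 0.51, and the other 3 overlap.

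Plasminogen activation turns plasminogen into plasmin at the cell surface, with urokinase as activator and serpins as brakes. PLAU (urokinase) had 1.77, 0 and 0 in Scramble, 2 reads in all, and 11.6, 10.7 and 7.97 in shOGT, a ratio of 16.8 (95% counting interval 4.25 to 146; log2 fold change 2.97 ± 0.50, adjusted p = 6.51e-05). Even in shOGT the gene stayed near 10 normalized counts, and 16.6% of its 75-base stretches are shared with C10orf55. SERPINE2 (protease nexin-1), which blocks thrombin and urokinase, rose from 374, 413 and 402 to 1097, 1224 and 1314 (log2 fold change 1.61 ± 0.10, adjusted p = 3.12e-09). SERPINF2 (alpha2-antiplasmin), the inhibitor of plasmin, fell from 184, 98.2 and 131 to 48.4, 30.0 and 51.2 (log2 fold change -1.64 ± 0.28, adjusted p = 6e-05, or -0.93 and not called after the rescaling).

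Of the other 8 serpins, 5 were higher and 3 lower. SERPINB5 (maspin), a B-clade serpin of epithelia that does not inhibit proteases, was the most abundant in shOGT, at 645, 783 and 734 in Scramble and 2831, 3102 and 3524 in shOGT (log2 fold change 2.13 ± 0.10, adjusted p = 2.91e-10). SERPINB7, its neighbour on chromosome 18 and a serpin of keratinized skin, went from 3.55, 9.91 and 5.52 to 275, 232 and 288 (log2 fold change 5.27 ± 0.33, adjusted p = 2.43e-09). SERPIND1 (heparin cofactor II), a thrombin inhibitor of plasma, went from 4.43, 2.70 and 3.68 to 32.6, 48.2 and 20.5 (log2 fold change 2.85 ± 0.42, adjusted p = 1.62e-05). SERPINI1 (neuroserpin) rose from 30.4 ± 5.88 to 143 ± 38.8 (log2 fold change 2.18). SERPINE3 rose from 9.60 ± 3.51 to 24.9 ± 4.12 (1.33), but 24.9% of its stretches are shared with INTS6, which overlaps it on the opposite strand.

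The 3 serpins that fell are neighbours on chromosome 14 and are known as plasma proteins made by the liver. SERPINA5 (protein C inhibitor) was well read, at 1221, 1079 and 1055 in Scramble and 526, 513 and 435 in shOGT (log2 fold change -1.19 ± 0.11, adjusted p = 9.8e-08, or -0.47 and not called after the rescaling). SERPINA4 (kallistatin) fell from 55.0, 56.8 and 75.5 to 7.37, 7.50 and 9.11 (log2 fold change -2.81 ± 0.33, adjusted p = 1.41e-06). SERPINA6, the corticosteroid carrier of blood, fell from 14.1 ± 3.92 to 2.25 ± 3.03 (log2 fold change -2.63, from -1.997 without shOGT replicate 5 to -3.37 without shOGT replicate 6).

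Matrix metalloproteinases cut collagens, proteoglycans and other matrix proteins, and TIMPs bind their active sites. Among 7 genes, 6 were higher and MMP15 was lower, with a class median of 2.53. MMP7 (matrilysin), a secreted enzyme of glandular epithelium and colorectal tumours, went from 833, 916 and 889.8 to 5052, 4689 and 5432 (log2 fold change 2.52 ± 0.09, adjusted p = 1.93e-11). TIMP2, which inhibits metalloproteinases and also takes part in MMP2 activation at the membrane, went from 1333, 1240.0 and 1267 to 7295, 7141 and 7784 (log2 fold change 2.53 ± 0.08, adjusted p = 1.16e-11), with 5.14% of its stretches shared with AC022966.1 and 7.37% with any gene. The groups were far apart beside their spread, with means and SDs of 879 ± 42.3 and 5058 ± 371 for MMP7. MMP24, a membrane-type enzyme of the nervous system, went from 76.3, 53.2 and 60.7 to 1037, 854 and 975 (log2 fold change 3.90 ± 0.15, adjusted p = 4.96e-11), and 15.1% of its stretches are shared with the opposite-strand gene MMP24OS and 17.1% with any gene.

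MMP2 (gelatinase A), MMP13 (collagenase 3) and MMP20 (enamelysin) were scarce in both groups. MMP2 had 0, 0.901 and 1.84 in Scramble and 12.6, 11.8 and 15.9 in shOGT, a ratio of 14.8 on 3 Scramble reads (4.70 to 75.2; log2 fold change 3.03 ± 0.48, adjusted p = 3.36e-05). MMP20, an enzyme of tooth enamel, had 1.77, 0 and 0 and 9.47, 15.0 and 15.9, a ratio of 22.3 on 2 Scramble reads (5.74 to 191; log2 fold change 3.33 ± 0.51, adjusted p = 2.31e-05), and 8.08% of its exon bases overlap another gene on the opposite strand. MMP13 rose from 23.2 ± 7.80 to 75.6 ± 4.10 (log2 fold change 1.70). The membrane-type enzyme MMP15 fell from 1410.2, 1098 and 1115 to 196, 176 and 182 (log2 fold change -2.70 ± 0.12, adjusted p = 1.33e-10), to 15.3% of its Scramble level.

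ADAM proteases are membrane sheddases, and ADAMTS enzymes are their secreted relatives with thrombospondin repeats. Of 11 members, 6 were higher and 5 lower. The sheddase ADAM9 was the most abundant, with 2591, 2791 and 2710.0 in Scramble and 8725, 9622 and 10209.8 in shOGT (log2 fold change 1.82 ± 0.09, adjusted p = 2.1e-10). ADAM32, which shares a stretch of 288 kb on chromosome 8 with ADAM9 and lacks a working catalytic site, went from 10.6, 12.6 and 12.0 to 203, 284 and 211 (log2 fold change 4.18 ± 0.25, adjusted p = 1.61e-09). ADAM23, also without catalytic activity and an adhesion protein of neurons, went from 0.887, 0.901 and 0 to 17.9, 12.9 and 6.83, a ratio of 21.1 on 2 Scramble reads (5.41 to 181; log2 fold change 3.05 ± 0.49, adjusted p = 3.96e-05). ADAM12, a sheddase of muscle and placenta, rose from 2.69 ± 2.33 to 12.8 ± 5.66 (log2 fold change 2.02). ADAMTS16 had no read in Scramble and 10.5, 9.64 and 13.7 in shOGT, at least 12.5-fold higher against the floor of 3 reads. ADAMTSL4, a fibrillin-binding protein with no protease domain, rose from 17.8 ± 4.89 to 95.6 ± 15.3 (2.38), with 10.3% of its stretches shared with ADAMTSL4-AS1.

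Lower in shOGT were ADAM19, ADAM8, ADAM11, ADAMTS6 and ADAMTS7. ADAM19, a sheddase that acts on neuregulin, fell from 2441, 2639 and 2474 to 934, 920.0 and 1027 (log2 fold change -1.39 ± 0.09, adjusted p = 2.52e-09, or -0.67 and not called after the rescaling). ADAMTS6 fell from 645, 710.1 and 687 to 129, 186 and 173 (log2 fold change -2.07 ± 0.14, adjusted p = 6.17e-09). ADAM8, a sheddase of myeloid cells, fell from 67.7 ± 14.9 to 28.5 ± 4.38 (-1.21, or -0.51 and not called after the rescaling). ADAM11, an inactive member of the nervous system, fell from 31 reads to 2, a ratio of 12.9 (3.28 to 111; log2 fold change -2.65). ADAMTS7, which cleaves cartilage oligomeric matrix protein, fell from 16.5 ± 10.6 to 1.41 ± 1.61 (-2.92), with 7.46% of its stretches shared with pseudogenes, mainly ADAMTS7P3 (5.41%).

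Proprotein convertases cut the precursors of many of the enzymes above, including membrane-type metalloproteinases and ADAM proteases. Both in the table fell. FURIN, the convertase of the trans-Golgi network, had rank 3 per kilobase among the members in Scramble, at 1001, and rank 15 in shOGT, at 214. It fell from 5277, 4545 and 4372 to 1075, 1012 and 945 (log2 fold change -2.22 ± 0.09, adjusted p = 8.78e-11), so 21.4% of the level was retained. PCSK4, a convertase of germ cells, fell from 23.1, 18.0 and 17.5 to 5.26, 2.14 and 3.41 (log2 fold change -2.20 ± 0.42, adjusted p = 0.00017).

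Membrane exo- and endopeptidases trim peptides at the cell surface. DPP4 (CD26), which removes N-terminal dipeptides from incretins, rose from 284, 239.7 and 323 to 729, 976 and 944 (log2 fold change 1.64 ± 0.14, adjusted p = 5e-08). ECE1, the endothelin-converting enzyme, fell from 7214, 6683 and 6650.3 to 3256, 3437 and 3533 (log2 fold change -1.01 ± 0.08, adjusted p = 2.97e-08). The ECE1 groups were far apart beside their spread, but the size of the change lay at the 2-fold limit, and it was -0.97 and not called without Scramble replicate 1 or without shOGT replicate 4, and -0.29 after the rescaling.

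The 3 cystatins, secreted inhibitors of papain-like cysteine proteases, were all higher. CST6 (cystatin E/M), an inhibitor of legumain and cathepsins in skin, had 2.66, 0 and 0 in Scramble and 68.4, 25.7 and 50.1 in shOGT, a ratio of 53.3 on 3 Scramble reads (17.9 to 262; log2 fold change 4.89 ± 0.56, adjusted p = 1.21e-06). All 3 Scramble reads came from replicate 1, without which its log2 fold change was 5.51. CST7 (cystatin F), known from leukocytes, went from 5.32, 4.51 and 2.76 to 26.3, 20.4 and 30.7 (log2 fold change 2.38 ± 0.40, adjusted p = 5.64e-05). CST1 (cystatin SN), a salivary cystatin, went from 7.98, 9.01 and 10.1 to 54.7, 31.1 and 43.3 (log2 fold change 2.10 ± 0.35, adjusted p = 5.51e-05), and 12.0% of its stretches are shared with its relative CST4.

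Calpains are calcium-dependent cysteine proteases of the cytosol, and 3 of 5 were higher. CAPN2, the large subunit of m-calpain, had 4377, 4406 and 4332 in Scramble and 13726, 12996 and 13350.1 in shOGT (log2 fold change 1.61 ± 0.08, adjusted p = 2.45e-10), and its neighbour CAPN8, a calpain of gastric mucus cells, had 2323, 2741 and 2876 and 6259.6, 6254 and 5714 (log2 fold change 1.20 ± 0.09, adjusted p = 2.31e-08). CAPN14, a calpain of oesophageal epithelium, had 0, 0 and 0.920 and 11.6, 7.50 and 5.69, a ratio of 27.7 on 1 Scramble read (4.49 to 1140.1; log2 fold change 2.85 ± 0.48, adjusted p = 6.17e-05). CAPN5 fell from 1521, 1185 and 1164 to 364, 315 and 281 (log2 fold change -2.00 ± 0.13, adjusted p = 3.24e-09) and CAPN12 from 232, 196 and 232 to 63.2, 31.1 and 52.4 (log2 fold change -2.20 ± 0.24, adjusted p = 8.17e-07), with 9.79% of the CAPN12 stretches shared with ACTN4. Calpastatin (CAST), the inhibitor of conventional calpains, also rose, from a mean of 2615 to 6502 (log2 fold change 1.31 ± 0.09, adjusted p = 4.13e-09).

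Set on 1 scale per kilobase of gene model, the order of the members changed between the groups. In Scramble the highest were SPINT1 (1936), ST14 (1386), FURIN (1001), ECE1 (934) and CAPN8 (510 normalized counts per kilobase). In shOGT they were ST14 (4455), SPINT1 (4386), PRSS2 (4103), MMP7 (2177) and PRSS22 (1753). ST14 and SPINT1 kept the first and second places in both groups, in exchanged order, and their shOGT levels differ by less than the spread between libraries. PRSS2 and MMP7 entered the first 5 from 293 and 379 per kilobase, and FURIN and ECE1 left it. Of the 64 members, 24 reached 100 normalized counts per kilobase in a group, and 5 had a mean below 10 normalized counts in both groups.

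**Figure D4:**
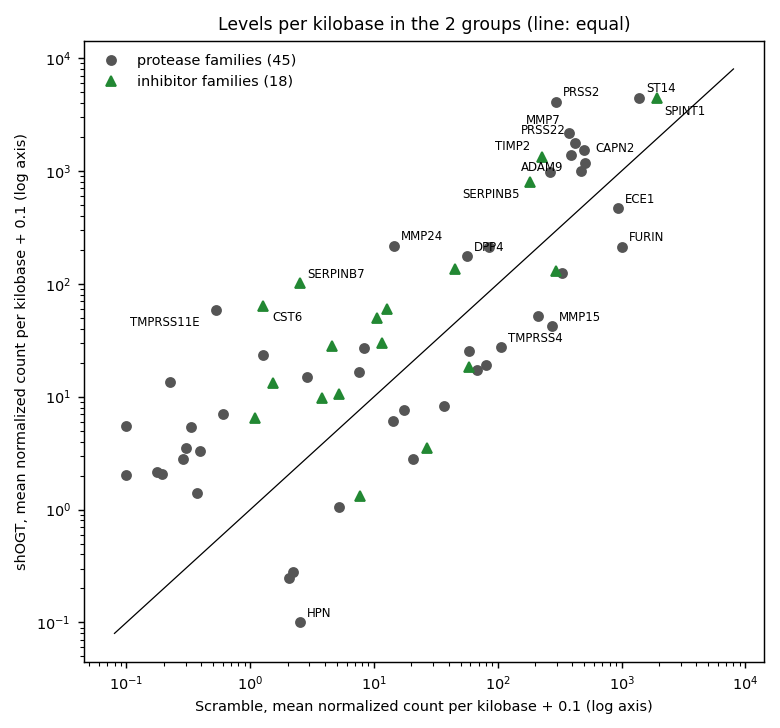
Mean normalized count per kilobase of gene model plus 0.1, Scramble on the horizontal and shOGT on the vertical axis, both log axes, for 63 members. Circles are protease families (45 genes) and triangles inhibitor families (18 genes), and the line marks equal levels. PRSS2 (293 to 4103) stands farther above the line than ST14 or SPINT1, and FURIN (1001 to 214) lies below it.

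Most adjacent members shared a direction, as did most adjacent protein-coding genes of the table. Chained by gaps of at most 500 kb, 21 members fall into 9 groups, with positions given on GRCh38. On chromosome 11 (102520508 to 102955734) MMP7, MMP20 and MMP13 were all higher. On chromosome 1 (223538007 to 223776018) CAPN8 and CAPN2 were higher, on chromosome 16 (2798485 to 2858170) PRSS41 and PRSS22, on chromosome 18 (63476761 to 63805376) SERPINB5 and SERPINB7, and on chromosome 7 (142749468 to 142774564) PRSS1 and PRSS2. SPINK1 and SPINK5 on chromosome 5 and ADAM9 and ADAM32 on chromosome 8 were higher as well. SERPINA6, SERPINA4 and SERPINA5 on chromosome 14 (94304248 to 94593120) were all lower. The kallikrein group on chromosome 19 (50819148 to 51002711) held both directions, KLK7 higher and KLK1 and KLK8 lower. In all, 10 of 12 pairs of adjacent members within 500 kb shared a direction (83.3%), and 1936 of 2999 such pairs of protein-coding genes of the table did (64.6%). The member pairs are few, some of them share a gene, and the difference between the shares was not tested.

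RefSeq promoter windows on GRCh38.p14, from 250 bases before to 50 bases after each start, were matched by symbol for 44 of the 64 members, 30 of them higher and 14 lower. Both strands were searched for TGACTCA, the AP-1 element known from metalloproteinase promoters, whose reverse complement is TGAGTCA, and for the palindrome CACGTG, the E-box bound by c-Myc. The AP-1 letters were in a window of 5 of the 44 members (11.4%), namely CAPN2, CAPN8, MMP7, SERPINB7 and SPINT1, all higher in shOGT, against 6.05% of 27305 genes. The E-box letters were in a window of 3 members (6.82%), against 8.78% of all genes. No member held both motifs. A match is only a run of letters, and counts of 5 and 3 are small.

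The AP-1 matches before the start are printed with 25 bases on each side, on the strand of the gene and with the match in capitals. Every member that carries one was higher in shOGT, but so were 30 of the 44 members with a window. A link between the match and the direction was not tested. The positions are chr1:223665764-223665820 (minus strand) for CAPN8, chr1:223701429-223701485 and chr1:223701394-223701450 (plus strand) for CAPN2, chr11:102530783-102530839 (minus strand) for MMP7, and chr18:63775354-63775410 and chr18:63777711-63777767 (plus strand) for SERPINB7, at 2 of its starts. Their distances before the start are 94, 143, 178, 67, 39 and 45 bases in the same order.
CAPN8: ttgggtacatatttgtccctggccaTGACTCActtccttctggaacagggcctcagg
CAPN2, nearer site: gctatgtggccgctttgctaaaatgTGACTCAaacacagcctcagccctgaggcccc
CAPN2, farther site: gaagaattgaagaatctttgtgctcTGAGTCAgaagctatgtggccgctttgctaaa
MMP7: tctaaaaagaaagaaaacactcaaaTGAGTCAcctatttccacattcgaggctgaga
SERPINB7, first start: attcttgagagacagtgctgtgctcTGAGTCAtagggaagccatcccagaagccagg
SERPINB7, second start: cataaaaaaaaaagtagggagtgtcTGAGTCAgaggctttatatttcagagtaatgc
The match of SPINT1 begins 6 bases before its start and runs across it, so it is not printed. CAPN2 carries both forms of the element in the same window.

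The E-box matches are printed in the same way because c-Myc is the factor the study examined. They lie at chr2:162074400-162074455 for DPP4, chr2:224031535-224031590 for SERPINE2 and chr5:65481953-65482008 for ADAMTS6, all on the minus strand, 215, 87 and 63 bases before the start. DPP4 and SERPINE2 were higher in shOGT and ADAMTS6 was lower.
DPP4: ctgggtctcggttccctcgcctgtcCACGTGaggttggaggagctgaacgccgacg
SERPINE2: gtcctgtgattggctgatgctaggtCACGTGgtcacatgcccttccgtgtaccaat
ADAMTS6: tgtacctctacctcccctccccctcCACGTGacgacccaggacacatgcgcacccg

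Genes that work with the members were taken from lists of receptors, substrates, cofactors and partners, and 23 of 58 were in the table, 14 higher and 9 lower, or 14 higher and 3 lower after the rescaling. The 3 with the largest means are all shed by ADAM proteases. EREG, an EGFR ligand, had 20315, 25041 and 22987 in Scramble and 6274, 8575 and 10506 in shOGT (log2 fold change -1.46 ± 0.15, adjusted p = 3.4e-07, or -0.74 and not called after the rescaling). APP, which has forms with a Kunitz domain, had 9208, 8584 and 8674 and 21201, 22799.7 and 23658 (log2 fold change 1.35 ± 0.08, adjusted p = 2.44e-09). AREG, another EGFR ligand, had 8792, 9689 and 9012 and 1910.4, 1980.4 and 2645 (log2 fold change -2.09 ± 0.11, adjusted p = 6.62e-10). EGFR ligands as a group were split, with AREG, EREG and BTC lower and EGF, HBEGF and EPGN higher, where BTC (-0.79) like EREG lost its call after the rescaling. Of protease-activated receptors, F2RL1 (PAR2), which trypsin and matriptase can cleave, was higher (1.31) and F2RL2 lower (-2.66). Shedding cofactors and regulators had TSPAN5 higher and RHBDF2, RECK, BSG and TSPAN17 lower, of which only RECK was still called after the rescaling (RHBDF2 -0.77, BSG -0.75, TSPAN17 -0.38). The 4 plasminogen and clotting partners in the table (F3, PROCR, VLDLR and VTN) were all higher. Of cathepsins and legumain, CTSE and CTSL were higher and LGMN lower (-1.01, or -0.29 and not called after the rescaling). Few reads lay behind VTN, with 5 in all Scramble and 28 in all shOGT libraries. The same holds for EPGN (10 and 36), F2RL2 (56 and 5) and RECK (46 and 8). MST1, of the HGF family that matriptase and hepsin can activate, was higher, and none of the 3 epithelial sodium channel subunits was in the table.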

How the data were processed

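Poly(A)-selected RNA of HT-29 cells was sequenced by the authors in 3 Scramble and 3 shOGT libraries, with unique molecular identifiers and dUTP second strand marking per the labels, and a strand-specific kit per the study's methods. The submitters' processing notes name cutadapt 1.9, HISAT2 2.0.4, UMI-tools, StringTie 1.3.4d, DESeq2 and edgeR, without roles, and the build mm8. The gene identifiers are human, and positions of 5681 of 5681 genes match GENCODE 29 on GRCh38. The strand setting of counting is not given in the sources used here, so genes on opposite strands may share reads.

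The deposited values are a signal, read counts per gene that the authors divided by 1 size factor per library, with no division by length. Dividing by the step of each library gave whole reads for 100% of values (tolerance 0.02). The authors' log2 fold change and p-value columns of the deposited table hold their own comparison and were read only to learn how the table had been restricted.

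The main test was limma's trend method (limma 3.58.1, R 4.3.3) on the log2 of the value plus 1, for genes reaching 1 or more in 3 libraries, with Benjamini-Hochberg adjustment. The script was tested on simulated data. The recovered whole reads were also tested by edgeR 4.0.16 and DESeq2 1.42.0. Other alternatives were a pseudocount of 0.1, no filter, a mean of at least 5, rescaling by the median ratio across listed genes, and each library left out. Because the table holds changed genes only, that rescaling and edgeR's TMM factors do not rest on unchanged genes. Single ratios were tested by exact two-sided permutation over the 6 libraries. Bounds use 3 reads over the group, and the 95% intervals for groups with 1 to 3 reads are exact binomial intervals conditional on the total, which cover counting error only. Shared sequence is the share of a gene's 75-base stretches in GENCODE 29 transcripts that also occur in transcripts of another gene. Levels between genes were compared per kilobase of the deposited gene length.

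The members, role classes, pairs and lists were chosen with earlier results of these data known. Every member is named except 1, which is not reported here. Values in each library are given for the 3 members of each class with the highest mean in either group, the 3 with the largest absolute change and both members of a pair.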

Additional observations from a re-analysis of the deposited data

How the results depend on the processing

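All 64 members kept their direction in every alternative, and all 64 were called by edgeR with TMM factors, by edgeR with the deposited size factors (added after seeing the data), by DESeq2, with a pseudocount of 0.1 and with no filter. A mean of at least 5 left 61 tested, all called. Rescaling by the median of ratios reduced the genes called lower from 2677 to 1090 and ended the calls of 7 members, ADAM19 (-0.67), ECE1 (-0.29), SERPINA5 (-0.47), PRSS16 (-0.51), SERPINF2 (-0.93), ADAM8 (-0.51) and KLK1 (-0.55). That scale raised the members' changes by 0.25 to 0.72. Leaving out 1 library gave 41 to 42 members higher and 20 to 22 lower, and ended calls of ECE1, KLK7, KLK1 and SPINK5.

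Of the ratios, PRSS3 to SPINK1 (-0.26) ranged from -0.498 to 0.102 with 1 library left out and changed sign without Scramble replicate 2, and KLK7 to SPINK5 (0.06) ranged from -0.495 to 0.594 and changed sign without Scramble replicate 3 (-0.495) and without shOGT replicate 4 (-0.0646). With a pseudocount of 0.1 the differences that rest on groups of 0 to 3 reads moved, to -7.464 for HPN to SPINT1, 3.63 for PLAU to SERPINE2 and 2.00 for MMP2 to TIMP2. No paired analysis was possible because the groups share no replicate numbers. Depth limits the 10 members with 1 to 3 reads in a group and the 3 with none, whose fold changes are given as intervals or bounds.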

Other observations

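Names that meet the rule but belong to genes that are not protein coding gave 4 further rows of the table, all higher in shOGT. WFDC21P, a WAP domain pseudogene, had 8.87, 2.70 and 1.84 normalized counts in Scramble and 49.5, 41.8 and 38.7 in shOGT (log2 fold change 3.23 ± 0.46, limma adjusted p = 1.29e-05). PRSS3P1, the trypsinogen pseudogene that shares stretches with PRSS2, had 1 read in Scramble and 5.26, 13.9 and 7.97 normalized counts in shOGT (2.92 ± 0.50, limma adjusted p = 6.7e-05). CAPN10-DT, a transcript divergent from CAPN10, went from a mean of 46.0 to 124 (1.41 ± 0.21, limma adjusted p = 1.94e-05), and ADAMTSL4-AS1, which overlaps ADAMTSL4, from 4.81 to 16.1 (1.53 ± 0.42, limma adjusted p = 0.00304). CAPN10 and its relatives outside the table were not analysed here.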
